A study of Mus musculus with 2 samples.

Results

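The genes described here are 31 members of the unfolded protein response and of the amino acid stress programme that overlaps with it. They were chosen by name from the deposited expression table, and 31 of 31 had a row of their own among its 25430 distinct gene names. The choice was made with earlier results of these data known. By role, 11 are chaperones and folding enzymes of the endoplasmic reticulum (ER), 4 belong to ER-associated degradation, 11 are targets of the transcription factor ATF4 and of the wider integrated stress response, and 5 are the stress sensors and transcription factors themselves. RNA was sequenced from primary mouse embryonic fibroblasts labelled Sptbn1 knockout and Wild type, prepared at embryonic day 13.5 from matings of Sptbn1+/- animals and replated once confluent in medium with serum. Sptbn1 encodes beta-2 spectrin, a scaffold of the membrane skeleton. Each genotype had 1 library, and the number of embryos behind each is not given in the sources used here. The question was whether these genes were expressed at other levels in the knockout library than in the wild-type library, and with 1 library each a spread between cultures cannot be had.

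Secreted and membrane proteins fold in the ER. When unfolded protein accumulates there, the membrane sensors IRE1 (gene Ern1), PERK (gene Eif2ak3) and ATF6 are activated. IRE1 splices the Xbp1 transcript into the form that encodes an active factor, ATF6 is cut to release its own, and both raise chaperone and degradation genes. PERK phosphorylates the initiation factor eIF2-alpha, which slows translation in general but favours that of Atf4, and other kinases do the same on amino acid shortage. ATF4 then raises genes of amino acid synthesis and uptake, and Ddit3, which encodes CHOP. Fibroblasts secrete much collagen, which has to pass through this machinery. Splicing of Xbp1, cleavage of ATF6 and translation of Atf4 are not visible in a gene-level table.

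The factors of these programmes bind short promoter elements, so the elements were looked for in the members' promoters. RefSeq promoter windows of the GRCm38.p6 build, which run from 250 bases before to 50 after the transcript start, were found for 26 of the 31 members (28 windows, since Psat1 and Vldlr have more than 1). No window was found for Hyou1, Manf, Slc7a3, Slc7a5 and Atf6. The reads were aligned to another build, so these coordinates serve for the sequences only. The ER stress response element ERSE, which ATF6 binds together with the factor NF-Y, was searched as CCAAT and CCACG with any 9 bases between them, on both strands. It was present in the windows of 7 members, against 0.119% of all 32851 windows. Of 9 chaperone and folding genes with a window, 6 held it: Hspa5, Hsp90b1 (in 2 places), Calr, Canx, Pdia6 and Creld2. The seventh was Syvn1 of the degradation group. The members were chosen as genes of these responses, so the match counts here and below are no test of enrichment. The related element ERSE-II, searched as ATTGG and CCACG with any 1 base between them on both strands, was present in Herpud1 alone among the members and in 0.0365% of all windows. The XBP1-type element was searched only as the exact letters TGACGTGG. None of the members' windows held these letters, which 0.676% of all windows hold. Forms that differ by a base were not searched, and the Hspa5 stretch below holds tgacgtga. The other members' lack of a match says only that the letters are not in the window. The stretches that hold the ERSE and ERSE-II matches are shown because most of the abundant chaperones hold one. They are written 5′ to 3′ on the gene's strand, ending at or before the transcript start, with matches in capitals, and Hspa5 is given over the whole 250 bases. In Herpud1 the first capitals are a match of the ATF4 element described next and the second are ERSE-II.
Hspa5, chr2:34771840-34772089, plus strand: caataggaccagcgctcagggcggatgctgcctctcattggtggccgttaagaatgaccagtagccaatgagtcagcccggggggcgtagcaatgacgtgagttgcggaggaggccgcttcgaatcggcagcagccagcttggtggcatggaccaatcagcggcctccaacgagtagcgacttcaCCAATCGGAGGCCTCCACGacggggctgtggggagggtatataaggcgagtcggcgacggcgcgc
Hsp90b1, chr10:86705513-86705676, minus strand: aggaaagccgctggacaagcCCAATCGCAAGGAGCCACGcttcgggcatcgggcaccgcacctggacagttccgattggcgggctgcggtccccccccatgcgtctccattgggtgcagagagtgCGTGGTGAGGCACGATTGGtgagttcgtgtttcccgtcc
Calr, chr8:84847055-84847113, minus strand: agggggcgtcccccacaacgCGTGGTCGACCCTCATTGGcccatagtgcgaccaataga
Canx, chr11:50325780-50325838, minus strand: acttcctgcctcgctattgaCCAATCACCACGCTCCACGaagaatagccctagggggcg
Pdia6, chr12:17266471-17266529, plus strand: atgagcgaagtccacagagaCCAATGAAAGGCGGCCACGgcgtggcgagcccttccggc
Creld2, chr15:88819500-88819558, plus strand: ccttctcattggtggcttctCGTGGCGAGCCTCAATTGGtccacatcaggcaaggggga
Syvn1, chr19:6046512-6046570, plus strand: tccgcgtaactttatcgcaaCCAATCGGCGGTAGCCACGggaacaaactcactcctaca
Herpud1, chr8:94386297-94386407, plus strand: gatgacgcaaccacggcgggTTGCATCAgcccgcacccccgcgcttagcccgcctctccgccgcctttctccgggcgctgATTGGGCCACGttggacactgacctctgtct

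The element that ATF4 binds with C/EBP partners, called CARE, was searched as TGATGNAA on both strands. This short pattern occurs in 3.97% of all windows, and 6 members held it. They were Herpud1, whose stretch is given above, and 5 of the 9 ATF4-linked genes with a window: Asns, Slc7a11 (in 2 places, on opposite strands), Chac1, Vldlr and Trib3. The Trib3 match lies after the transcript start, from base 15, and its surroundings are not printed. The other stretches are shown with the match in capitals.
Asns, chr6:7693210-7693252, minus strand: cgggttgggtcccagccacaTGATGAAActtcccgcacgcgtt
Slc7a11, chr3:50443633-50443699, minus strand: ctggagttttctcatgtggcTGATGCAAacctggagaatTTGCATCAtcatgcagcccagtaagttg
Chac1, chr2:119351029-119351076, plus strand: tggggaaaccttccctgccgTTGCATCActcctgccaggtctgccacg
Vldlr, chr19:27216800-27216847, plus strand: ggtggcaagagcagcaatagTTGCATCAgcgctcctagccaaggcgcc

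**Figure D1:**
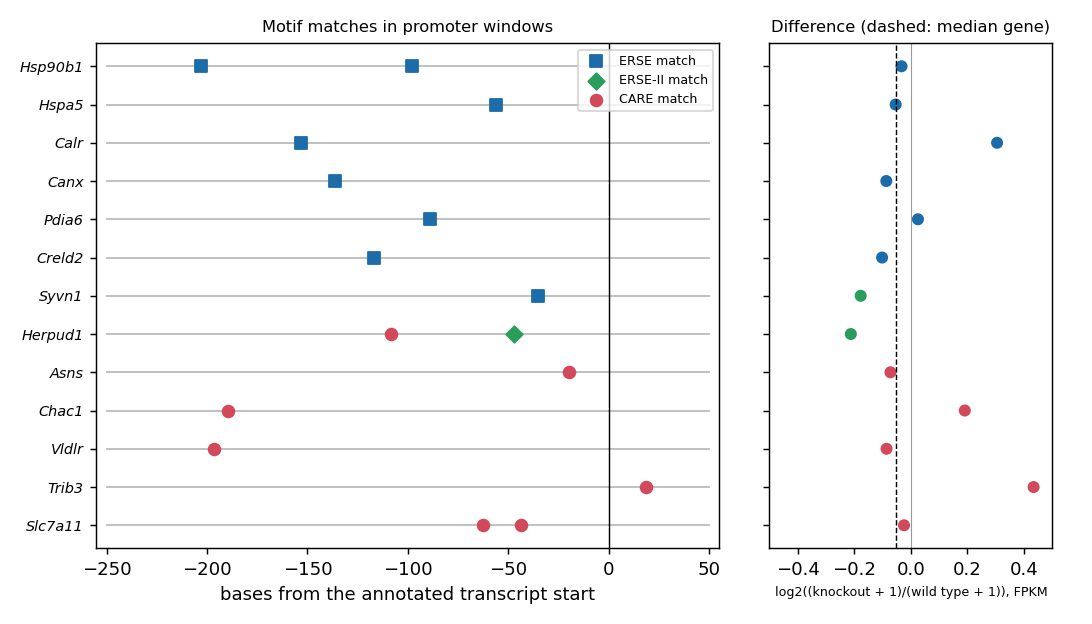
Left, matches of ERSE, ERSE-II and CARE along the promoter windows of the 13 members with a match, in bases from the annotated transcript start. Right, the log2 ratio of the same genes (knockout over wild-type FPKM, 1 added to each), coloured by role, with the median of all measured genes dashed. The 8 members with an ERSE or ERSE-II match run from -0.21 (Herpud1) to 0.30 (Calr), and the 6 with a CARE match from -0.21 (Herpud1) to 0.43 (Trib3).

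Levels were deposited as FPKM, a fragment number divided by transcript length and by the mapped fragments, which allows genes to be compared per length. The total fragment number of each library is not given in the sources used here, so the depth is unknown and no counting interval is given. Among 3100 rows with low values in both columns, the commonest ratio of knockout over wild-type FPKM was 1.61, found in 383 rows. If it is the worth of a single fragment, one weighs more in the knockout column, but a scaling of the deposited FPKM could not be told apart from depth. The gene Sptbn1 itself was listed at 36.6 FPKM in knockout and 69.6 FPKM in wild-type fibroblasts, so 52.5% of the wild-type value remained in the library labelled knockout. A gene-level FPKM does not show which exons these fragments came from, and this value alone does not show loss of the gene. The column read as wild type also carries a -/- mark in its header, and every direction rests on reading it by its WT title. Defining fibroblast markers were abundant in both libraries, with Col1a1 at 939 FPKM in knockout and 957 FPKM in wild-type fibroblasts, Thy1 at 239 FPKM in knockout and 255 FPKM in wild-type fibroblasts, and Pdgfra at 29.7 FPKM in knockout and 35.3 FPKM in wild-type fibroblasts. Of 12 fibroblast markers 10 were lower in the knockout library on the deposited scale, and 5 lay above the median gene. Their summed levels were 4182 FPKM in knockout and 4468 FPKM in wild-type fibroblasts. Of 15 macrophage markers 13 were lower in the knockout library on the deposited scale, where 36.9% of all measured genes (defined below) were higher. The macrophage markers' summed levels were 256 FPKM in knockout and 340 FPKM in wild-type fibroblasts. On a common FPKM sum 9 of 15 markers were higher in the knockout library, against 94.7% of all measured genes. Of the 15 markers, 2 lay above the median gene. Their median log2 ratio (also defined below) was -0.30 on the deposited scale, against -0.05 for all measured genes. Ptprc, the common leukocyte antigen, was at 2.55 FPKM in knockout and 2.52 FPKM in wild-type fibroblasts, Csf1r at 5.25 FPKM in knockout and 6.69 FPKM in wild-type fibroblasts, and Cd68 at 19.0 FPKM in knockout and 28.3 FPKM in wild-type fibroblasts. Macrophages also express the genes described here, and the part of the markers' difference in the values below was not tested. In RNA from a whole culture, fewer cells of a type and less RNA per cell cannot be told apart.

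The unfolded protein and amino acid stress genes were near-equal in the 2 libraries. Differences are given as log2 ratios, log2((knockout FPKM + 1)/(wild-type FPKM + 1)), a scale that understates the change of low genes, and a gene is called measured at a mean of 1 FPKM or more. All 31 members were measured, and their median log2 ratio was -0.02, beside -0.05 for all 11070 measured genes. No member was 2-fold or more higher or lower in the knockout library. Among all measured genes, 0.361% were at least 2-fold higher and 0.379% at least 2-fold lower, so 0 of 31 is near the background. The members ran from -0.40 (Slc7a3) to 0.43 (Trib3) and 31 of 31 lay within 1.5-fold on this scale, against 97.7% of all measured genes. Values within 0.1 of 0 were found for 18 members (58.1%) and for 44.5% of all measured genes. Above 0 were 14 members and below 0 were 17. The share above 0 was 45.2% for the members and 36.9% for all measured genes, and 18 members lay above the median gene. The members were chosen with earlier results of these data known, so these shares are a description only. The zero point depends on the scaling: with both columns brought to a common FPKM sum, 30 of 31 members (96.8%) and 94.7% of all measured genes lay above 0, with medians of 0.41 for the members and 0.33 for all measured genes. The signs below are those of the deposited scale and are read against the median gene at -0.05.

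**Figure D2:**
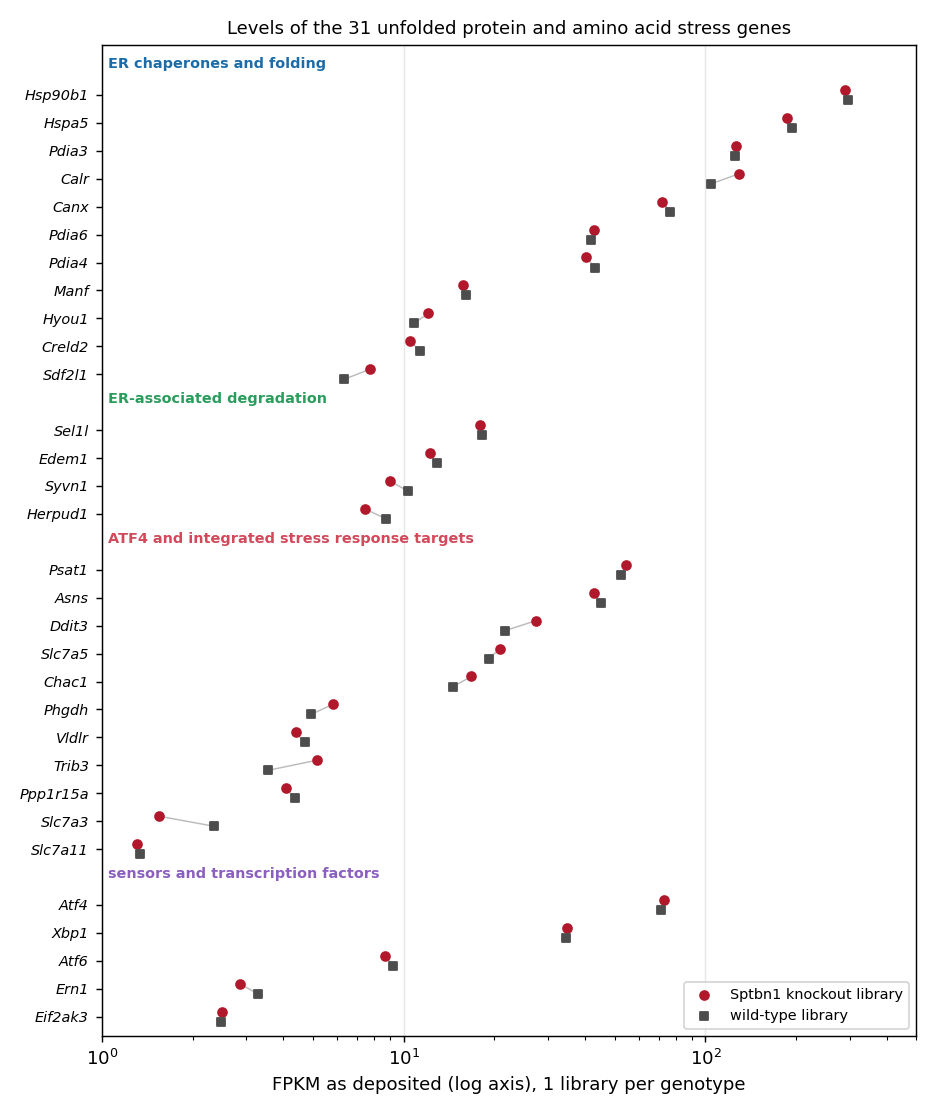
FPKM as deposited (log axis) of the 31 members in the Sptbn1 knockout library (circles) and the wild-type library (squares), 1 library per genotype, grouped by role and ordered by mean level. The levels run from 1.30 FPKM in knockout and 1.34 FPKM in wild-type fibroblasts (Slc7a11) to 291 FPKM in knockout and 297 FPKM in wild-type fibroblasts (Hsp90b1), and the pairs of points nearly coincide for most genes.

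The abundant chaperones of the ER set the top of the list. The most abundant, Hsp90b1 and Hspa5, differed little between the libraries, while Calr, described next, was at 0.30. Hsp90b1, the ER member of the HSP90 family (also called GRP94), was at 291 FPKM in knockout and 297 FPKM in wild-type fibroblasts, a log2 ratio of -0.03, and ranked 48 of 11070 measured genes by mean level. Hspa5, the ER HSP70 protein BiP that holds the sensors inactive and is the usual readout of ER stress, was at 187 FPKM in knockout and 194 FPKM in wild-type fibroblasts (-0.05, rank 90). Both carry ERSE matches in the stretches above, and relative to the median gene they were at 0.02 and -0.0025. The ratio of Hsp90b1 to Hspa5 FPKM within a library, which no scaling can move, was 1.56 in knockout and 1.54 in wild-type fibroblasts. Hyou1, a large HSP70 relative that exchanges nucleotide on BiP, was at 12.1 FPKM in knockout and 10.8 FPKM in wild-type fibroblasts (0.14).

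The lectin chaperones calreticulin and calnexin bind the same monoglucosylated glycoproteins, one soluble in the lumen and the other in the membrane. Calr, the soluble one, was at 129 FPKM in knockout and 105 FPKM in wild-type fibroblasts, a log2 ratio of 0.30 and the highest of the folding group. Canx, the membrane one, was at 71.9 FPKM in knockout and 76.4 FPKM in wild-type fibroblasts (-0.09). The ratio of Calr to Canx FPKM was thus 1.80 in knockout and 1.37 in wild-type fibroblasts, a pair picked once its values had been seen. Of the 200 genes that averaged at least 100 FPKM, 23.5% lay at least as far from their own median as Calr did. The log2 ratios of these 200 genes spread widely, with a central 95% from -10.6 to 1.12. For genes of 20 to 100 FPKM the central 95% ran from -0.50 to 0.51. The share for Calr therefore does not show whether its difference was unusual for a gene of this level. Pdia3, the disulfide isomerase that works with both lectins, was at 126 FPKM in knockout and 125 FPKM in wild-type fibroblasts (0.01).

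The other disulfide isomerases were as close. Pdia6 was at 42.7 FPKM in knockout and 41.9 FPKM in wild-type fibroblasts (0.03). Pdia4 was at 40.3 FPKM in knockout and 42.9 FPKM in wild-type fibroblasts (-0.09). The remaining 3 folding genes encode small luminal proteins that ER stress induces. Sdf2l1, a cofactor of BiP and its J-domain partners, was at 7.74 FPKM in knockout and 6.36 FPKM in wild-type fibroblasts (0.25). Manf, a BiP-binding protein that is secreted when ER calcium drops, was at 15.8 FPKM in knockout and 16.0 FPKM in wild-type fibroblasts (-0.02). Creld2 was at 10.5 FPKM in knockout and 11.4 FPKM in wild-type fibroblasts (-0.10). Over the 11 folding genes the median log2 ratio was -0.02, with 5 above and 6 below 0. Their summed FPKM was 933 in knockout and 927 in wild-type fibroblasts.

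The 4 genes of ER-associated degradation, which draws misfolded proteins out of the ER for the proteasome, were each slightly lower in the knockout library on the deposited scale. On a common FPKM sum each was above 0 (0.20 to 0.41), as were 94.7% of all measured genes. On that scale the median of the 4 was 0.30, against 0.33 for all measured genes. After centring on the median gene 1 of the 4 was above 0. Herpud1, which organises the degradation complex at the membrane and carries both ERSE-II and CARE matches, was at 7.44 FPKM in knockout and 8.77 FPKM in wild-type fibroblasts, a log2 ratio of -0.21. Syvn1, the ubiquitin ligase of the complex (also called HRD1), was at 9.01 FPKM in knockout and 10.3 FPKM in wild-type fibroblasts (-0.18). Edem1, a lectin that recognises trimmed mannose on misfolded glycoproteins, was at 12.2 FPKM in knockout and 12.9 FPKM in wild-type fibroblasts (-0.07). Sel1l, the adaptor that holds Syvn1 in place, was at 17.9 FPKM in knockout and 18.3 FPKM in wild-type fibroblasts (-0.03). Their median was -0.12, against -0.05 for all measured genes, of which 36.9% lay above 0. Relative to the median gene, Sel1l was on the other side, at 0.02. Of the 4352 genes with a mean of 5 to 20 FPKM, 28.5% lay at least as far from their own median as Herpud1 did.

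**Figure D3:**
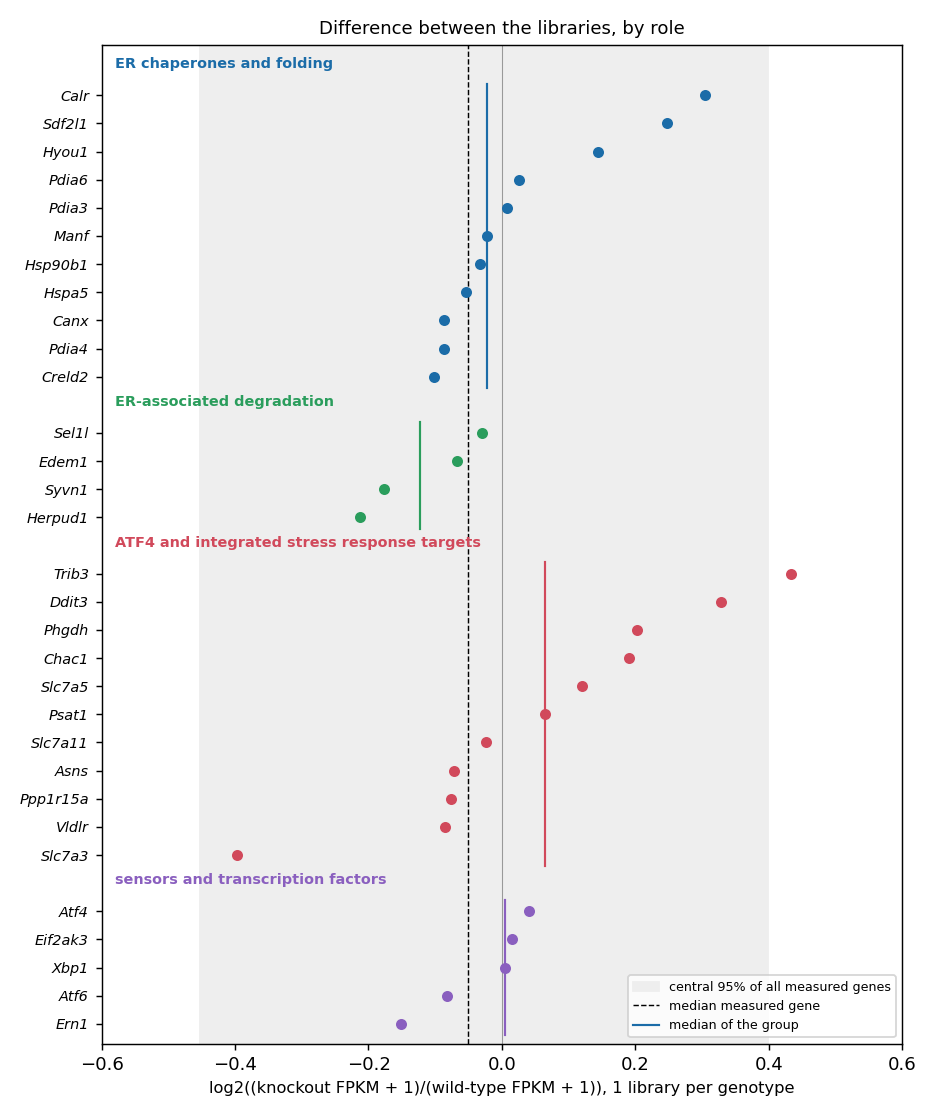
Log2 ratio of each member, knockout over wild-type FPKM with 1 added to each, grouped by role and ordered by value, with the median of each group as a coloured line, the median of all measured genes dashed and their central 95% (-0.45 to 0.40) shaded. All members but Trib3 (0.43) lie in the shaded range. The 4 degradation genes lie below 0 on this deposited scale. On a common FPKM sum they lie above 0, as do 94.7% of all measured genes.

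Targets of ATF4 and the integrated stress response ran from -0.40 to 0.43, both ends set by genes with a mean under 5 FPKM. Their median log2 ratio was 0.06, with 6 of 11 above and 5 below 0, where 36.9% of all measured genes lay above 0. Relative to the median gene, 7 lay above and 4 below. Trib3, a pseudokinase that dampens ATF4 and CHOP activity, was at 5.15 FPKM in knockout and 3.56 FPKM in wild-type fibroblasts, 145% of the wild-type value and a log2 ratio of 0.43. It was the 1 member outside the central 95% of all measured genes, and 3.76% of the 5241 genes with a mean of 1 to 5 FPKM lay at least as far from their own median. Ddit3, which encodes the pro-apoptotic factor CHOP, was at 27.5 FPKM in knockout and 21.7 FPKM in wild-type fibroblasts (0.33), and 8.54% of the 1277 genes of 20 to 100 FPKM lay at least as far out. Chac1, a glutathione-degrading enzyme induced downstream of ATF4, was at 16.8 FPKM in knockout and 14.6 FPKM in wild-type fibroblasts (0.19). Ppp1r15a (also called GADD34), which brings a phosphatase to eIF2-alpha and so ends the response, was at 4.08 FPKM in knockout and 4.36 FPKM in wild-type fibroblasts (-0.08).

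Amino acid genes lay on both sides of 0 on the deposited scale. For serine synthesis, Phgdh, the first enzyme of the pathway, was at 5.83 FPKM in knockout and 4.93 FPKM in wild-type fibroblasts (0.20). Psat1, the aminotransferase that follows it, stood well above it, at 54.7 FPKM in knockout and 52.3 FPKM in wild-type fibroblasts (0.06), which was 9.40 times Phgdh in knockout and 10.6 times in wild-type fibroblasts. Asns, the asparagine synthetase and a classical ATF4 target, was at 42.7 FPKM in knockout and 44.9 FPKM in wild-type fibroblasts (-0.07). The amino acid carriers differed more in level than between the libraries. Slc7a5, the large neutral amino acid exchanger, was at 20.9 FPKM in knockout and 19.1 FPKM in wild-type fibroblasts (0.12). Slc7a11, which imports cystine for glutathione, was at 1.30 FPKM in knockout and 1.34 FPKM in wild-type fibroblasts (-0.02), and its window holds CARE in 2 places. Slc7a3, a cationic amino acid carrier, was at 1.54 FPKM in knockout and 2.35 FPKM in wild-type fibroblasts, 65.7% of the wild-type value and a log2 ratio of -0.40. Of the genes of 1 to 5 FPKM, 7.86% lay at least as far out as Slc7a3. Vldlr, a lipoprotein receptor that PERK and ATF4 signalling induces in mouse cells, was at 4.39 FPKM in knockout and 4.72 FPKM in wild-type fibroblasts (-0.09).

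The sensors and factors above these targets were near-equal, with Ern1 the furthest from 0. Atf4 was the most abundant of them, at 73.1 FPKM in knockout and 71.0 FPKM in wild-type fibroblasts (0.04). Xbp1 was at 34.8 FPKM in knockout and 34.6 FPKM in wild-type fibroblasts (0.00), spliced and unspliced forms together. Atf6 was at 8.69 FPKM in knockout and 9.25 FPKM in wild-type fibroblasts (-0.08), and a second Atf6 row, listed at 0 in both, was not used. The kinase genes were the lowest of the group. Ern1 was at 2.86 FPKM in knockout and 3.29 FPKM in wild-type fibroblasts (-0.15), and Eif2ak3 at 2.51 FPKM in knockout and 2.48 FPKM in wild-type fibroblasts (0.02). The median of the 5 was 0.00.

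**Figure D4:**
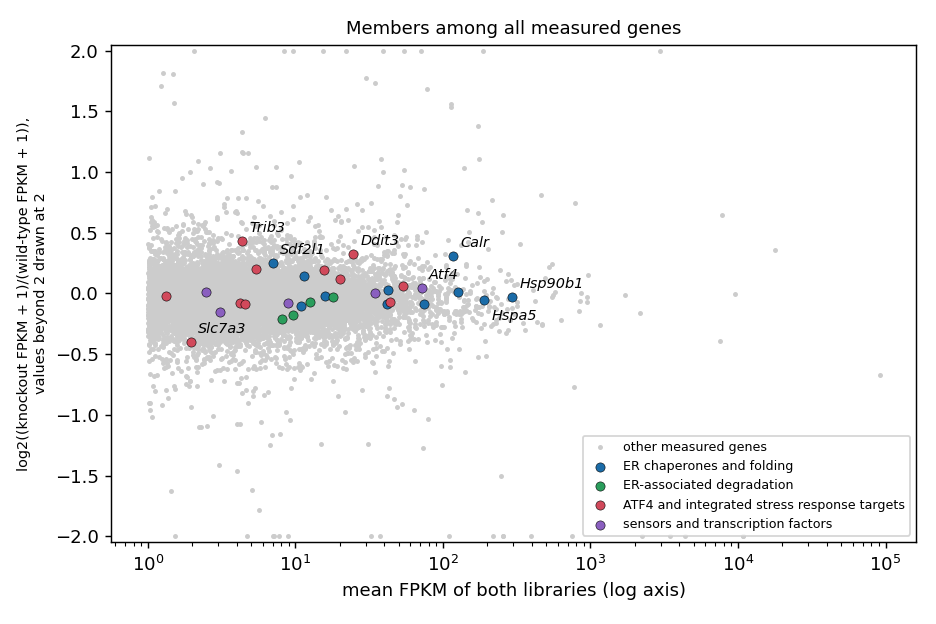
Log2 ratio (knockout over wild type, 1 FPKM added to each) against mean FPKM on a log axis for the members, coloured by role, and all other measured genes in grey, with values beyond 2 drawn at 2. The members sit inside the grey cloud at every level, with Trib3 (0.43) at its upper and Slc7a3 (-0.40) at its lower side.

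The other genes of these pathways, 142 in 4 lists, were looked at in the same way, on the deposited scale, and 0 of the 133 measured were 2-fold or more higher or lower, beside 0.361% of all measured genes higher and 0.379% lower. Of all measured genes, 36.9% lay above 0. On a common FPKM sum the medians of these lists were 0.35 to 0.45, beside 0.33 for all measured genes. On that scale 94.7% of all measured genes lay above 0. Genes of ER folding, translocation and export had a median log2 ratio of -0.05, with 18 of 49 above 0. Ero1a, the oxidase that recharges disulfide isomerases, was at 24.9 FPKM in knockout and 20.6 FPKM in wild-type fibroblasts (0.26), and Dnajb9, a BiP cochaperone strongly induced by XBP1, at 7.08 FPKM in knockout and 5.94 FPKM in wild-type fibroblasts (0.22). Ssr2 followed at 0.15, and the lowest were the cargo receptor subunit gene Mcfd2 at -0.35, the signal peptidase gene Spcs3 at -0.29 and the BiP exchange factor gene Sil1 at -0.28. Further genes of ER-associated degradation had a median of -0.05, with 5 of 23 above 0. Among these the ubiquitin-conjugating enzyme gene Ube2g2 was at -0.32, Selenok at -0.29 and the ligase gene Rnf5 at -0.23, while the lectin gene Erlec1 was at 0.30, the lectin gene Os9 at 0.13 and the extraction ATPase gene Vcp at 0.11.

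Further regulators of the stress responses had a median of -0.06, with 10 of 25 above 0. Atf5, a factor that is translated under stress like Atf4, was at 40.9 FPKM in knockout and 30.8 FPKM in wild-type fibroblasts (0.40). The stress-induced gene Nupr1 was at 0.21 and the ATF6 relative Atf6b at 0.16. The subunit genes Eif2b1 and Eif2b3 of the exchange factor that phosphorylated eIF2-alpha inhibits were at -0.43 and -0.27, and Ppp1r15b, the constitutive partner of Ppp1r15a, at -0.21. Further ATF4-linked genes had a median of 0.07, close to the 0.06 of the ATF4-linked members. Above 0 were 21 of 36, against 36.9% of all measured genes. Above the median gene lay 28 and below it 8, against 5535 on either side among all measured genes. This list was chosen with earlier results of these data known. Ddit4, an mTORC1 inhibitor that ATF4 and other stress factors induce, was at 20.6 FPKM in knockout and 11.5 FPKM in wild-type fibroblasts (0.80). The neutral amino acid carrier gene Slc1a4 was at 0.33 and the proline synthesis gene Pycr1 at 0.29, whereas the carrier gene Slc7a6 was at -0.23, Stc1 at -0.18 and the transaminase gene Got1 at -0.15.

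For most members the p-value of the authors' deposited table followed the size of the difference, and Atf4 and Hspa5 stood apart. In the authors' deposited table, 5.6% of the measured genes had a p-value under 0.05, 2.01% higher and 3.59% lower in the knockout library, and 2 of the 31 members did, a share near that background. These 2 were Atf4, at p = 0.001711 in the authors' deposited table for a log2 ratio of 0.04, and Hspa5, with 0.030068 in the authors' deposited table for -0.05. Trib3 and Slc7a3, with the largest differences among the members, had p-values of 0.11826 and 0.0929433 in the authors' deposited table, Calr one of 0.155253 and Ddit3 one of 0.280896. If each p-value of the authors' deposited table is read as a normal test of the log2 FPKM ratio, the standard error behind it is 0.0132 for Atf4 and 0.0249 for Hspa5, and 0.158 to 0.360 for the other 29 members. A value under 0.05 was implied for 121 measured genes, 1.10% of those with a ratio, and 118 of them had a p-value under 0.05 in the authors' deposited table. Among the other pathway lists, p-values under 0.05 in the authors' deposited table were held by 4 of 36 ATF4-linked genes, 1 of 49 genes of folding, translocation and export (Mcfd2, 0.0467), 0 of 23 degradation genes and 1 of 25 regulators (Atf5, 0.0447). The 4 ATF4-linked genes were Ddit4 (5.7e-05 in the authors' deposited table), Vegfa (0.027433), Aldh18a1 (0.03077) and Cth (0.031423), of which the last 3 were chosen after their values were seen. Aldh18a1 had a log2 ratio of -0.0015. No replicate library stands behind these p-values.

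**Figure D5:**
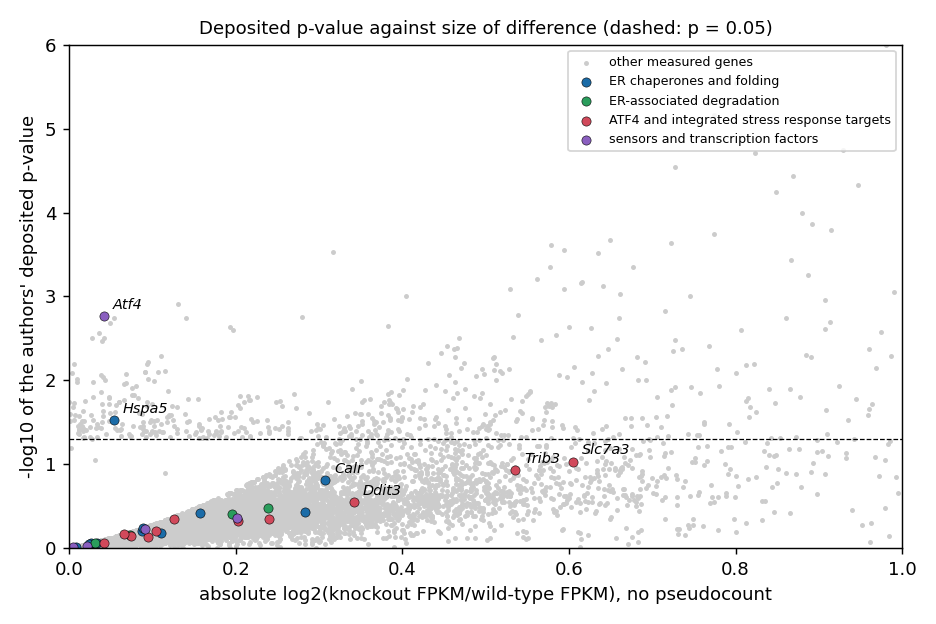
The p-value of the authors' deposited table (as -log10) against the absolute log2 ratio of FPKM without a pseudocount, for the members, coloured by role, and the other measured genes in grey, up to a ratio of 1. Most genes lie in a wedge where the p-value follows the difference, and Atf4 and Hspa5 lie in a separate cloud of small differences above the dashed line at 0.05.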

How the data were processed

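RNA of embryonic fibroblasts was sequenced as 1 Sptbn1 knockout and 1 wild-type library. Per the submitters' processing notes and the series' design text, reads were checked with FastQC and Trimmomatic, aligned with TopHat2 2.0.10 to NCBI mouse build 37.2, quantified with Cufflinks and compared with Cuffdiff2. The authors deposited 1 table with FPKM per gene and library, and p-values per gene, not adjusted, per the file headers. FPKM from Cufflinks are estimates that divide shared fragments between similar genes, and the total fragment number of each library is not given in the sources used here. The table held 25587 rows. Of rows that share a name, that of the highest mean FPKM was used, which concerned Atf6 among the members. Log2 ratios used a pseudocount of 1 FPKM, and measured genes had a mean of 1 FPKM or more. No test was possible with 1 library per genotype. Names were matched to RefSeq genes of GRCm38.p6. Mbtps2 and Aars stand in rows joined with a neighbour and were not used. Members and gene lists were chosen with earlier results of these data known. Named were the 31 members, Sptbn1, the 3 highest and 3 lowest measured genes of each other pathway list, defining markers and the rows that take most of an FPKM sum. Vegfa, Aldh18a1 and Cth were named after their values were seen. Alternatives were another pseudocount, 3 scalings, other filters and summed repeated rows, with 2 scalings added later. Calculations used Python 3.11.15 with pandas 2.3.3, numpy 2.4.6 and scipy 1.17.1, and scripts were tested on simulated data.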

Additional observations from a re-analysis of the deposited data

How the results depend on the processing

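No paired analysis was possible because each genotype had 1 library, and no replicate could be left out. No member was 2-fold or more higher or lower under any of the 7 planned and 2 added alternatives. A pseudocount of 0.1 FPKM, centring on the median gene, a common upper quartile, no filter, a mean of 5 FPKM or more and summed repeated rows moved no median of the members, their 4 groups or the 4 other pathway lists by more than 0.1. The zero point depends on the scaling. The row Mir682 made up 25.2% of the FPKM sum in knockout and 29.1% in wild-type fibroblasts. On a common FPKM sum, a log2 shift of 0.47, 30 of 31 members lay above 0 (all but Slc7a3), with a median of 0.41. There the group medians were 0.43 (folding), 0.30 (degradation), 0.52 (ATF4 targets) and 0.35 (sensors and factors), and those of the other lists 0.37 (folding), 0.35 (degradation), 0.37 (regulators) and 0.45 (ATF4-linked). Without the 2 largest rows (Mir682 and Rn18s), a setting chosen after seeing the data, these were 30 members, 0.40 for all, 0.41, 0.29, 0.50 and 0.34 for the groups, and 0.35, 0.33, 0.35 and 0.43 for the lists. A common sum over genes of 1 to 100 FPKM, also chosen after seeing the data, shifted values by 0.05, left 18 members above 0 and gave a median of 0.02. The cause of the gap between these sums was not tested. Signs of ratios near 0 therefore carry no direction, and with the depth unknown no counting error can be given.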
